A study of Mus musculus with 16 samples.

Results

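The 34 genes described here mark endothelial cells, the cells that line blood vessels: genes of capillaries, genes of arteries and genes that most endothelial cells share. They were listed by name and not by a cut on measured values, but with earlier results of these data known. All 34 were found among 38087 gene rows of experiment A and among 54232 rows of experiment B. All 34 also passed the filters on low values in both experiments.

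RNA was measured from frozen mouse hearts of the C57BL/6 strain in 2 experiments that addressed the loss of Cap2, which encodes an actin-regulating protein. Experiment A compared 3 wild-type with 3 CAP2 -/- hearts from females aged 86 weeks, with no promoter named for the deletion. Experiment B compared 5 Loxp/Loxp Cre- controls (3 females and 2 males) with 4 Loxp/Loxp, Myh6-cre+ hearts (3 females and 1 male), all aged 13 weeks. A further male Cre+ library has no values in the table and was not analysed here. The Myh6 promoter drives Cre in cardiomyocytes, so endothelial cells were not the cells aimed at in experiment B. The controls carry the loxP alleles as well, and Cre and the loss of Cap2 came together in the Cre+ group. In experiment B, libraries of different sex come from different animals, and each library has its own number in the labels. The labels do not state that each number is an animal, so part of the spread that the p-values measure may be technical.

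Endothelial cells hold on to each other through VE-cadherin (Cdh5), PECAM-1 and claudin-5, and form the barrier between blood and tissue. They read growth signals through the VEGF receptors Kdr and Flt1 and through the angiopoietin receptor Tek and its partner Tie1. Notch signalling through Dll4 and Notch1 shapes arteries. The heart has a dense capillary bed, whose endothelium passes fatty acids to cardiomyocytes with the help of Gpihbp1, Fabp4 and Cav1. The transcription factors Erg, Sox7, Sox17 and Sox18 are known regulators of endothelial genes.

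RefSeq promoter sequences of build GRCm38.p6 were at hand for 18 of the 34 genes, as 24 windows, and 250 bases before each start were searched on both strands. The letters AGGAAG, a core with flank that factors of the ETS family such as Erg can bind, were in 11 of the 24 windows (45.8%, from 10 of the 18 genes), against 29.5% of all 32851 windows. Of 3 other motifs searched, the SOX motif ACAATG was in 4.17% of the windows of endothelial genes against 10.7% of all, and the E-box CANNTG in 62.5% against 66.2%. The CArG box, which serum response factor binds and which bears on the MRTF/SRF theme of the series title, was in 0 of the 24 windows against 1.47% of all. A match is a description of letters, and no match says nothing about a factor. The upstream windows of Eng and Flt1, with the AGGAAG matches of either strand in capitals, and of Cldn5, which has none, are shown as examples picked after the matches were seen. They are Eng on the plus strand at chr2:32646345-32646594, Flt1 on the minus strand at chr5:147726012-147726261 and Cldn5 on the plus strand at chr16:18776597-18776846.
Eng: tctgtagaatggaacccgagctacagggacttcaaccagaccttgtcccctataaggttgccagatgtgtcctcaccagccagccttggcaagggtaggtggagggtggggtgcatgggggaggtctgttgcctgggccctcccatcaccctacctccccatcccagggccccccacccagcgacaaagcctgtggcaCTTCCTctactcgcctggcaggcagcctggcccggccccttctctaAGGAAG
Flt1: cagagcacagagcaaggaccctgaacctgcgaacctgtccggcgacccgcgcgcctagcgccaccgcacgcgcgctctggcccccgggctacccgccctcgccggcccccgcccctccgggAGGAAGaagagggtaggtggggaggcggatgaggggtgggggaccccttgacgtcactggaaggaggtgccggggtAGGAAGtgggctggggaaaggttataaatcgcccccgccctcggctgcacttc
Cldn5: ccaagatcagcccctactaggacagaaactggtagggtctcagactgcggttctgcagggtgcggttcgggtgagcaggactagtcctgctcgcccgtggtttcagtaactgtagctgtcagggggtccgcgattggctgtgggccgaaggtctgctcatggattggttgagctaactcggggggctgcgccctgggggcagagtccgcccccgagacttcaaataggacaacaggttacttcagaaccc

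The total of estimated counts per library was 10750175 to 27440478 in experiment A. The deposited normalized counts of experiment B summed to 3815980 to 4044523 per library without the mitochondrial genes, and the read depth behind them is unknown. Cap2 checked the labels: it fell from 214 ± 15.7 CPM (counts scaled to the library total; SD, n = 3) in wild type to 12.2 ± 3.91 (n = 3) in CAP2 -/-, and from 391 ± 288 (n = 5) to 65.0 ± 24.2 (n = 4) normalized counts in Cre+ (adjusted p = 1e-07 with edgeR and 0.0161 with limma). In experiment B the call was lost without control replicate 1 (0.0687) or Cre+ replicate 4 (0.0922). Mitochondrial genes, which those sums leave out, took 23.0 to 69.5% of all values of an experiment B library, so the full sums differ more. The control replicate 4 of experiment B stood apart and is described with the results it touches.

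In hearts aged 86 weeks, none of the 34 endothelial genes passed the test between CAP2 -/- and wild type, and their summed level differed by less than its spread: 4039 ± 385 CPM in wild type and 3995 ± 275 CPM in CAP2 -/- (SD, n = 3 each). edgeR's quasi-likelihood test called 0 of the 34 at an adjusted p under 0.05, where it called 1.35% of the 16297 genes tested (137 higher, 83 lower). At an unadjusted p under 0.05 there were 6 of the 34, with Eng, Ly6c1 and Fabp4 higher and Tie1, Sox7 and Nos3 lower, against 10.4% of all genes. DESeq2 called 1 of the 34 (Tie1), against 2.24% of all genes. The authors' deposited table also has 1 of the 34 under 0.05 (Tie1), against 2.61% of its genes. The median log2 fold change of the 34 genes was -0.06, and that of all genes tested was 0.01. The groups did not overlap in 6 of the 34 genes (3 higher, 3 lower), against 15.6% of all genes. In 31 of the 34 the 95% interval of the fold change lay within 2-fold in both directions, which held for 75.1% of all genes. In bulk tissue, fewer cells of a type and less RNA per cell cannot be told apart.

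**Figure D1:**
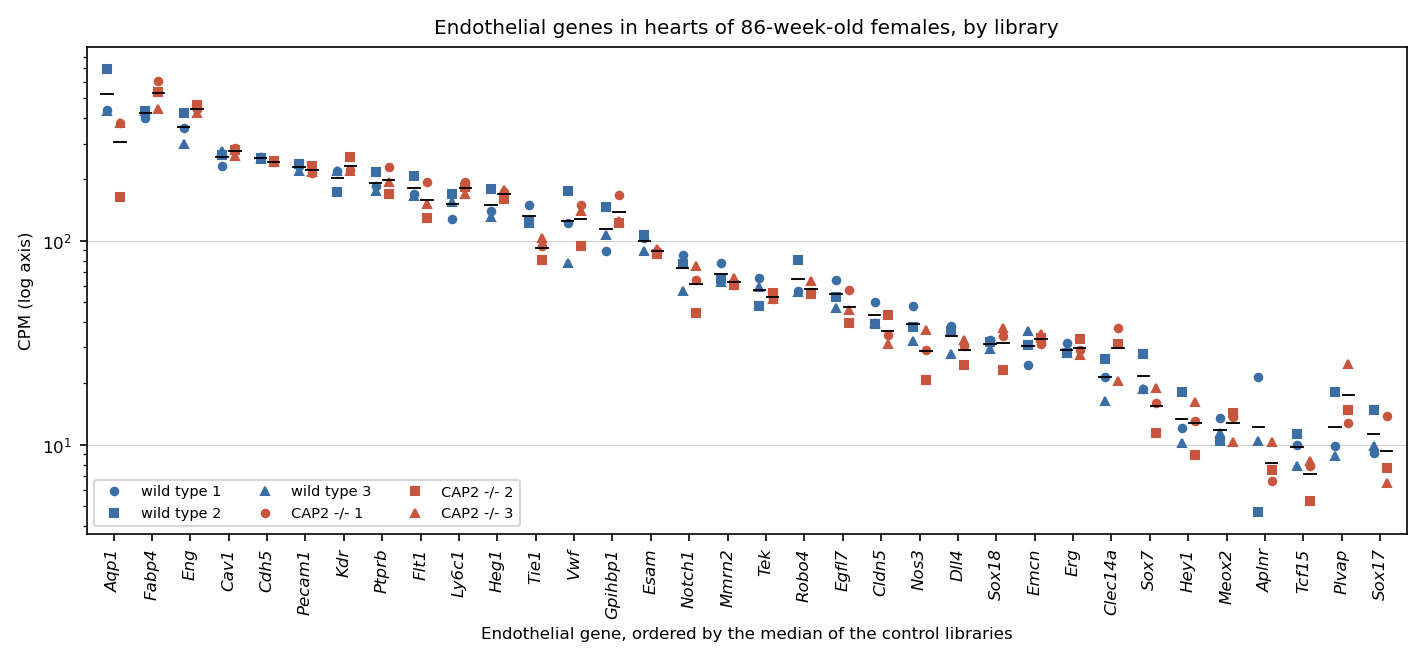
CPM on a log axis of each endothelial gene in the 6 libraries of experiment A; each point is 1 library and each short line a group mean. The wild-type and CAP2 -/- points lie close together for most genes, and Tie1 is the gene with the smallest p.

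Among junction and surface genes, Cdh5 varied least of all 34. It was at 256.9, 253.5 and 253.2 CPM in the wild-type libraries and at 244.1, 246.1 and 242.4 CPM in the CAP2 -/- libraries, for an estimated log2 difference of -0.06 (SE 0.104, adjusted p = 0.90 with edgeR). The 2 groups did not overlap, but the difference is small beside the error of the fit. Pecam1, an adhesion protein of endothelial junctions, was at 230 ± 9.32 CPM and 222 ± 10.2 CPM. Ly6c1, a surface protein of capillary endothelium, was at 127.7, 170.5 and 155.7 CPM in wild type and at 194.8, 183.0 and 169.7 CPM in CAP2 -/-, and the groups overlapped (log2 fold change 0.27, SE 0.126, adjusted p = 0.466). Its close copy Ly6c2 may share reads with it, so its level is uncertain. Clec14a, an endothelial surface lectin, was at 21.5, 26.3 and 16.45 CPM in wild type and 37.4, 31.2 and 20.5 CPM in CAP2 -/- (log2 fold change 0.47, SE 0.225, adjusted p = 0.502).

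Among receptors and signalling genes, Tie1 came nearest to the threshold. Tie1, an orphan receptor kinase that works with Tek, lies on chromosome 4 from 118471191 to 118490061 on the minus strand (mm10, GENCODE M21). It was at 150, 125 and 123 CPM in the 3 wild-type libraries and at 94.4, 80.5 and 103 CPM in the 3 CAP2 -/- libraries. Every CAP2 -/- library was below every wild-type library. The log2 fold change was -0.52 (SE 0.129, 95% interval -0.79 to -0.25), with an adjusted p of 0.0623 in edgeR. The adjusted p ran from 0.00353 to 0.288 over the alternatives: Tie1 was called by DESeq2 (0.0159), with library totals in place of TMM scaling (0.0324) and with no filter on low counts (0.00353). Its partner Tek was at 57.5 ± 9.15 and 53.0 ± 2.36 CPM (adjusted p = 0.831).

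Eng, a co-receptor for the BMP and TGF-beta family, was at 359, 425 and 297 CPM in wild type and 441, 464 and 426 CPM in CAP2 -/-. All 3 CAP2 -/- values were above the wild-type values, for an estimated log2 difference of 0.30 (SE 0.128) and an adjusted p of 0.404. The VEGF receptor Kdr was at 204 ± 26.8 CPM and 234 ± 20.7 CPM (adjusted p = 0.663), and Flt1, which binds VEGF as well, at 181 ± 22.6 CPM and 158 ± 32.7 CPM (0.721). Nos3, the endothelial nitric oxide synthase, was at 39.3 ± 7.94 and 28.8 ± 7.95 CPM (log2 fold change -0.45, SE 0.204, adjusted p = 0.475). Vwf, the clotting factor of endothelial granules, was at 125 ± 49.0 and 128 ± 29.6 CPM.

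The share of Flt1 read as its 13-exon transcript Flt1-203 was 23.1, 24.1 and 23.8% in wild type and 22.6, 21.0 and 19.8% in CAP2 -/-. The groups do not overlap, but these deposited shares were described without a test. The full-length transcript Flt1-202, with 30 exons, held 70.1 ± 1.12% and 71.9 ± 2.11% (SD, n = 3 each). For Eng, transcript Eng-205 held 18.6 ± 2.10% in wild type and 13.2 ± 3.11% in CAP2 -/-, and the groups do not overlap. In every other transcript of Flt1 and Eng examined, the groups overlapped. How often the shares of other genes separate in this way was not counted.

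The Notch and arterial genes had 4 of 4 estimates below 0, and none passed the test. Dll4, the Notch ligand of arterial and sprouting endothelium, was at 38.3, 36.3 and 27.9 CPM in wild type and 30.45, 24.7 and 32.5 CPM in CAP2 -/- (log2 fold change -0.23, SE 0.156, adjusted p = 0.692). Notch1, its receptor, was at 85.7, 77.3 and 56.6 CPM against 64.1, 44.05 and 75.4 CPM (log2 fold change -0.26, SE 0.207, adjusted p = 0.755). In both genes the groups overlapped. Of 10 further Notch partners, 0 were called by edgeR, against 1.35% of all genes. At an unadjusted p under 0.05 there was 1 of the 10, lower in CAP2 -/-, against 10.4% of all genes.

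Among the transcription factors, Sox7 was at 18.85, 27.7 and 18.8 CPM in wild type and at 16.0, 11.4 and 19.1 CPM in CAP2 -/- (log2 fold change -0.48, SE 0.208, adjusted p = 0.426). Tcf15, a factor linked to fatty acid uptake in heart capillaries, was at 9.98, 11.2 and 7.90 CPM against 7.88, 5.29 and 8.33 CPM (log2 fold change -0.43, SE 0.231, adjusted p = 0.553). Erg, at 29.3 ± 1.97 and 29.9 ± 2.71 CPM, and Sox18, at 31.3 ± 1.68 and 31.7 ± 7.34 CPM, had estimates near 0.

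Of the transport and lipid genes, Fabp4, a fatty acid carrier, was at 401, 432 and 433 CPM in wild type and 609, 537 and 445 CPM in CAP2 -/-. The groups did not overlap, with an estimated log2 difference of 0.33 (SE 0.123, adjusted p = 0.314). Aqp1, the water channel, was at 437, 695 and 435 CPM in wild type and 377.9, 163.7 and 377.3 CPM in CAP2 -/-, an estimated log2 difference of -0.77 (SE 0.411, adjusted p = 0.641). The groups did not overlap here either, but the interval runs from -1.84 to 0.30. CAP2 -/- replicate 2 was the lowest library in 14 of the 34 genes, against 19.9% of all genes tested.

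The remaining genes of experiment A (Emcn, Egfl7, Aplnr, Esam, Cldn5, Robo4, Sox17, Gpihbp1, Cav1, Ptprb, Hey1, Heg1, Mmrn2 and Meox2) had log2 fold changes from -0.61 (Aplnr) to 0.28 (Gpihbp1) and adjusted p-values of 0.634 to 0.967 in edgeR.

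Per kilobase of exon in wild type, Aqp1 (199 CPM per kilobase), Fabp4 (94.0), Ly6c1 (90.2), Eng (89.0) and Cav1 (74.8) were the 5 highest of the 34. In CAP2 -/- the same 5 were at 117, 118, 109, 110 and 79.8. Neighbours such as Ly6c1 and Eng were within the spread of the libraries. Sox17 (2.36 CPM per kilobase in wild type) and Aplnr (3.31) were the lowest.

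In hearts aged 13 weeks, none of the 34 endothelial genes passed the test between Cre+ and control, and the summed level was 24150 ± 7936 normalized counts in controls (n = 5) and 26780 ± 3884 in Cre+ (n = 4), with overlapping ranges. limma called 0 of the 34 at an adjusted p under 0.05, where it called 1.88% of the 12141 genes tested (115 higher, 113 lower). After removal of the trend on GC content it called 1 (Plvap), against 2.7% of all genes. No count test was run on these normalized values. At an unadjusted p under 0.05 there were 4 of the 34, with Plvap, Cldn5 and Vwf higher and Aplnr lower, against 22.1% of all genes. The groups did not overlap in 2 of the 34, both higher in Cre+ (Plvap and Cldn5), against 8.66% of all genes. The median log2 fold change of the 34 genes was -0.0013, and that of all genes tested was -0.12. Only 13 of the 34 intervals lay within 2-fold in both directions, against 41.2% of all genes, so a 2-fold difference lay within the interval of most of these genes.

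**Figure D2:**
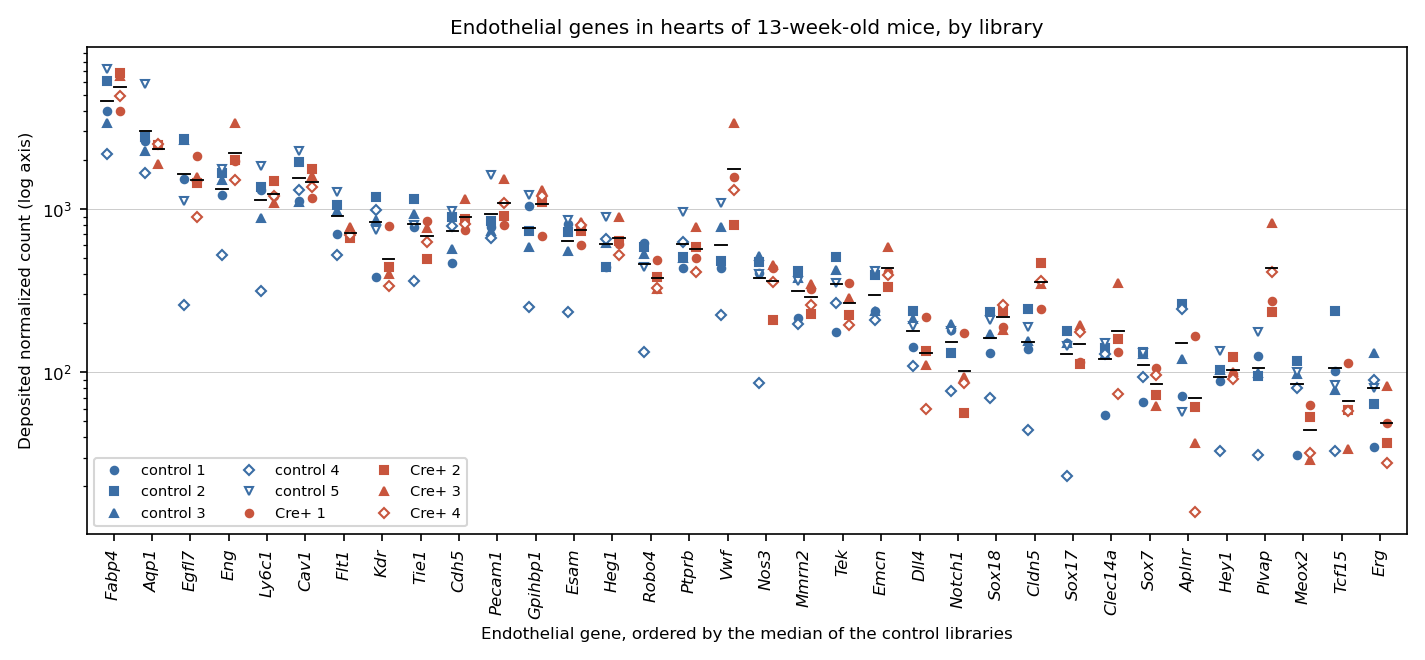
Deposited normalized count on a log axis of each endothelial gene in the 9 libraries of experiment B; each point is 1 library and each short line a group mean. Control replicate 4 is the lowest point for many genes, and Plvap and Cldn5 are the 2 genes whose Cre+ points all lie above the control points.

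Plvap, a protein of the diaphragms of fenestrated and caveolar endothelium, had the largest estimate of the 34. It lies on chromosome 8 from 71497765 to 71511752 on the minus strand. It overlaps the antisense gene Gtpbp3, whose reads cannot be told apart where strand was not counted. The same holds for Eng with Fpgs, Nos3 with Atg9b and Egfl7 with Agpat2, and Egfl7 also overlaps Gm20532 on its own strand. The normalized counts of Plvap were 126, 95, 99, 31 and 177 in controls and 273, 235, 818 and 414 in Cre+. Each Cre+ library was above each control. The log2 fold change, on the log2(value + 1) scale, was 2.01 (SE 0.496, 95% interval 0.92 to 3.10), or 4.03-fold, with an adjusted p of 0.0648 in limma. The adjusted p ran from 0.0185 to 0.277 over the alternatives, and Plvap was called after quantile normalization (0.0353), without control replicate 4 (0.0341), control replicate 5 (0.0185) or Cre+ replicate 1 (0.0469), and in 2 further settings given at the end. In hearts aged 86 weeks Plvap was at 12.3 ± 5.12 and 17.5 ± 6.56 CPM (log2 fold change 0.54, SE 0.333, adjusted p = 0.662).

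Plvap is also among 6 listed endocardial markers, and the summed level of atrial markers was higher in every Cre+ library than in every control. All 5 atrial markers listed had an estimate above 0 (median log2 fold change 4.74), and their summed level was 27 to 9143 in controls and 83710 to 174834 in Cre+. limma called 0 of the 5 (lowest adjusted p = 0.0742), against 1.88% of all genes. The groups did not overlap in 1 of the 5, against 8.66% of all genes. The atrial marker Myl7 was at 21, 344, 3014, 16 and 58 in controls and at 105, 6996, 10677 and 17044 in Cre+. In this gene Cre+ replicate 1 lay among the controls, though its summed level of atrial markers was 83710. Nppa is also 1 of the 5 markers. The sum was not split by gene, so its separation cannot be credited to the markers as a set. The part of these markers in the result was not tested.

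Cldn5, which seals endothelial junctions, lies on chromosome 16 from 18776847 to 18778262 on the plus strand. It was at 139, 243, 155, 44 and 189 in controls and at 246, 469, 346 and 364 in Cre+. The highest control (243) was just under the lowest Cre+ library (246), and the lowest control (44) was replicate 4, which stands apart. The log2 fold change was 1.28 (SE 0.412) and the adjusted p 0.122 in limma. In hearts aged 86 weeks the estimate was -0.25 (SE 0.152, adjusted p = 0.634). Of 11 junction and surface genes, 9 had an estimate above 0, with Cdh5 at 739 ± 212 and 892 ± 178 and Pecam1 at 930 ± 395 and 1084 ± 326.

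Vwf was at 438, 479, 777, 226 and 1093 in controls and at 1584, 796, 3348 and 1313 in Cre+, and Cre+ replicate 2 lay under control replicate 5. Its log2 fold change was 1.51 (SE 0.492, adjusted p = 0.124 with limma). The adjusted p of Vwf ran from 0.0251 to 0.332 over the alternatives. It passed the threshold without control replicate 5 (0.0350) and in a further setting given at the end.

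Aplnr, the receptor for apelin, was at 72, 262, 120, 243 and 57 in controls and at 61, 37 and 14 in Cre+ replicates 2, 3 and 4, while Cre+ replicate 1 lay above 3 of the 5 controls. The groups overlapped, and the log2 fold change was -1.51 (SE 0.616, adjusted p = 0.188). Kdr was at 833 ± 302 and 492 ± 199 (log2 fold change -0.75, SE 0.357, adjusted p = 0.240), and 8 of the 10 receptor and signalling genes had an estimate below 0. Eng was at 1334 ± 496 and 2208 ± 797 (log2 fold change 0.69, SE 0.344, adjusted p = 0.262).

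Dll4 was at 143, 237, 211, 110 and 192 in controls and 219, 135, 111 and 60 in Cre+ (log2 fold change -0.65, SE 0.304, adjusted p = 0.237). Notch1 was at 181, 132, 198, 77 and 179 in controls and 173, 56, 94 and 86 in Cre+ (log2 fold change -0.68, SE 0.355, adjusted p = 0.279). In both genes Cre+ replicate 1 lay among the controls. Of the 4 Notch and arterial genes, 2 had an estimate above 0 (Sox17 and Hey1) and 2 below. Of 7 further artery genes, 6 had an estimate above 0 and 1 below. The transcription factor Meox2 was at 31, 117, 98, 80 and 100 in controls and 63, 53, 29 and 32 in Cre+ (log2 fold change -0.87, SE 0.413, adjusted p = 0.239). Erg was at 35, 64, 132, 90 and 80 against 49, 37, 83 and 28 (log2 fold change -0.70, SE 0.416, adjusted p = 0.335). Of the 7 transcription factors listed, 3 had an estimate above 0 (Sox17, Sox18 and Hey1) and 4 below.

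Among the transport genes, Gpihbp1, which anchors lipoprotein lipase on capillaries, was at 1038, 730, 586, 252 and 1229 in controls and 688, 1110, 1306 and 1199 in Cre+ (log2 fold change 0.61, SE 0.426, adjusted p = 0.413). Fabp4 was at 4020, 6117, 3374, 2179 and 7210 in controls and 4007, 6854, 6573 and 4954 in Cre+ (log2 fold change 0.36, SE 0.368, adjusted p = 0.587). The groups overlapped in both genes. The remaining genes (Tek, Flt1, Emcn, Egfl7, Ly6c1, Esam, Robo4, Sox7, Sox17, Sox18, Aqp1, Cav1, Ptprb, Nos3, Hey1, Heg1, Mmrn2, Clec14a and Tcf15) had log2 fold changes from -0.65 (Tcf15) to 0.57 (Emcn) and adjusted p-values of 0.258 (Emcn) and above in limma.

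**Figure D3:**
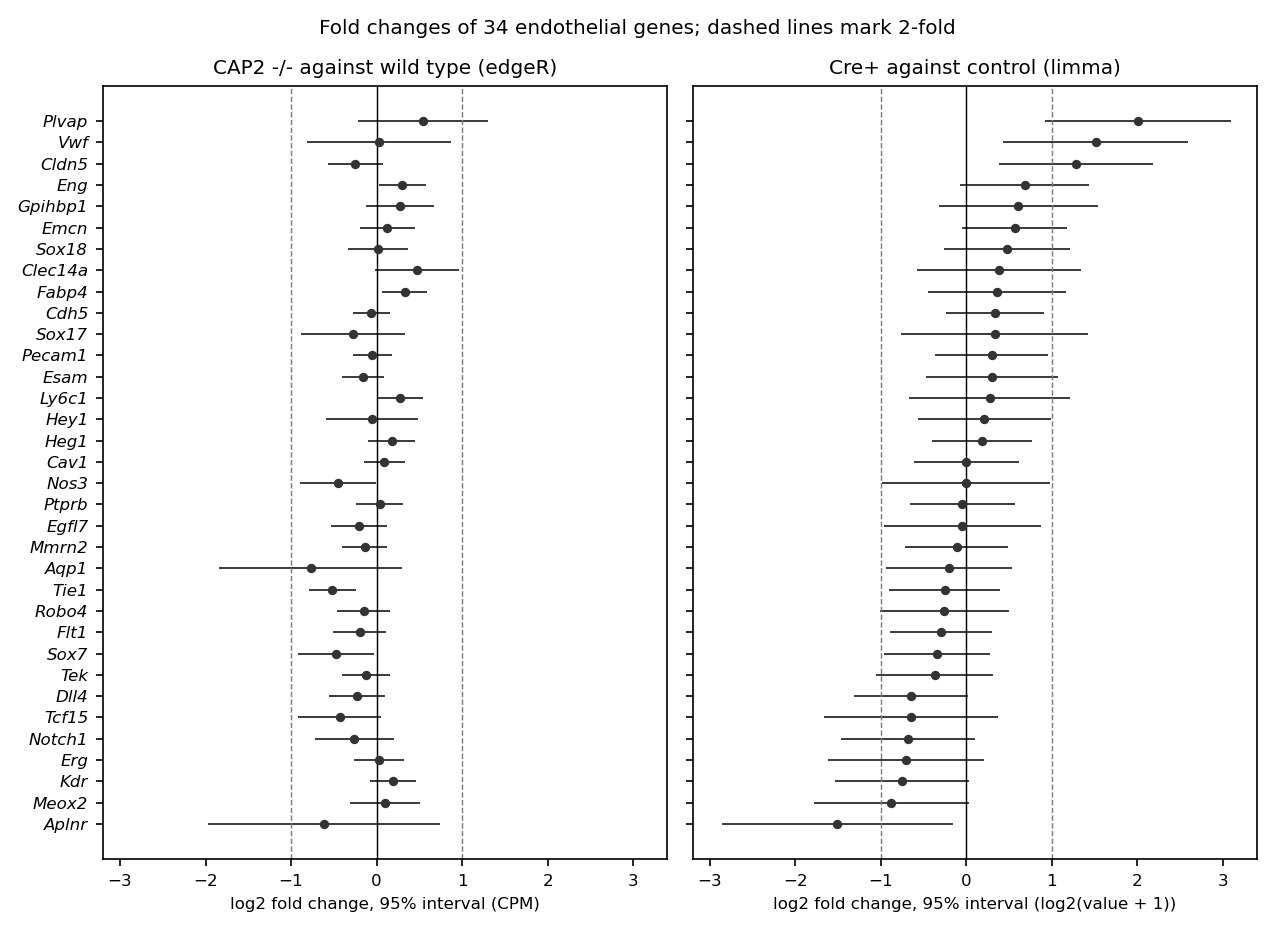
log2 fold change with its 95% interval for each of the 34 endothelial genes in experiment A (edgeR) and experiment B (limma), with dashed lines at 2-fold. The intervals of experiment B are wider, and Plvap, Vwf and Cldn5 have the highest estimates there.

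The experiments differ in age, sexes, deletion and library kit, so their values are set side by side with no test of the difference. Of the 34 genes, 10 had an estimate above 0 in both, 13 below 0 in both and 11 opposite signs. Tie1 was at 805 ± 289 and 685 ± 157 normalized counts in experiment B (log2 fold change -0.25, SE 0.295, adjusted p = 0.641). The coefficient of variation within a group had a median over the 34 genes of 16.0% in wild type and 16.2% in CAP2 -/-, and of 39.7% in controls and 25.8% in Cre+ of experiment B.

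Control replicate 4, a male, was the lowest of the 9 libraries in 21 of the 34 genes, against 29.7% of all genes tested. Egfl7 was at 259 there and at 1126 to 2690 in the other controls. In 17 of the 34 genes, and in 2743 of 12133 genes tested, it lay more than 1 log2 unit below the mean of the other controls. These 17 had a median GC content of 57.1% in their longest transcript and the rest of the 34 had 50.5%, against 54.2% and 48.5% for the same split of all genes. Across the 34 genes its deviation from the other controls had a correlation of -0.554 with GC content, and across 12133 genes tested -0.41. Both are descriptions across genes of 1 library, which are not independent replicates. The same correlation was 0.311, 0.264, 0.14 and 0.035 in control replicates 1, 2, 3 and 5, and calls after removal of this trend are given above.

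**Figure D4:**
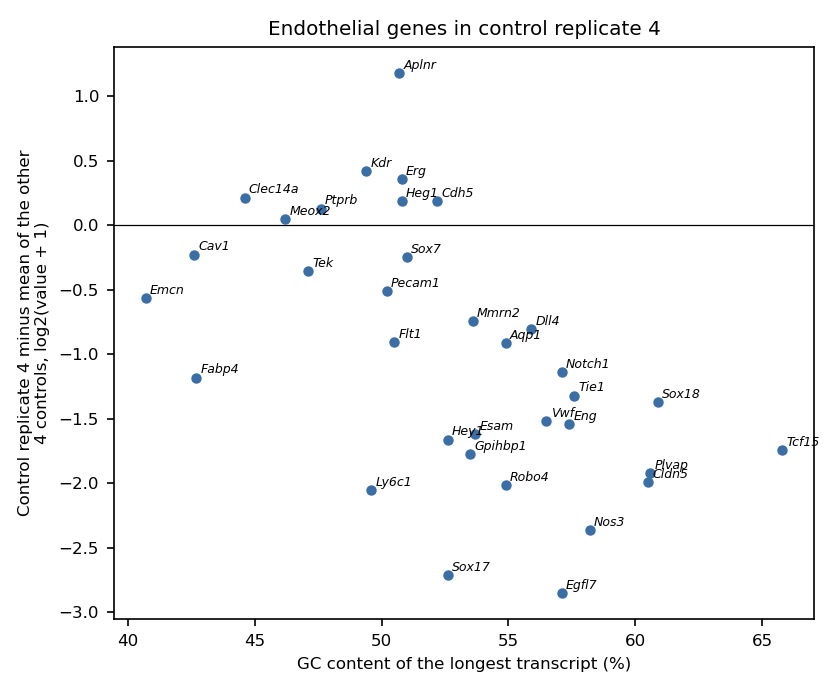
Difference of control replicate 4 from the mean of the other 4 controls, on the log2(value + 1) scale, against GC content of the longest transcript; each point is 1 of the 34 endothelial genes. The points fall to the right, with a median of 57.1% GC for the 17 genes under -1.

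The summed level of 16 further capillary genes was lower in every CAP2 -/- and Cre+ library than in every library of its control group. It was 10190 to 10950 CPM in wild type and 7782 to 9789 CPM in CAP2 -/-, with 11 of 16 estimates below 0 and a median log2 fold change of -0.09. In experiment B it was 31701 to 52357 in controls and 19124 to 24666 in Cre+, with 13 of 16 below 0 and a median of -0.43 (all genes: -0.12). At an unadjusted p under 0.05, 4 of the 16 were lower and 0 higher in each experiment, against 10.4% of all genes in either direction in experiment A and 22.1% in experiment B. Most of the sum is Lpl, the lipoprotein lipase, which cardiomyocytes make. In wild type Lpl was at 7238, 7444 and 7113 CPM, and in CAP2 -/- at 6556, 5648 and 4931 CPM. Its log2 fold change there was -0.35 (SE 0.114, adjusted p = 0.204 with edgeR). The sum without Lpl was not taken, so the separation of the sums cannot be credited to the other genes. In experiment B the same holds. Lpl was at 31217, 25004, 20828, 36081 and 29098 in controls and at 11792, 14940, 12708 and 11136 in Cre+ (log2 fold change -1.13, SE 0.268, adjusted p = 0.0588 with limma), and the groups did not overlap.

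Of these 16 genes, edgeR called 1 lower in hearts aged 86 weeks, against 1.35% of all genes in either direction, and limma called 0 in hearts aged 13 weeks. Tspan7 fell from 132.8, 132.8 and 119.7 CPM to 94.6, 89.0 and 87.1 CPM (log2 fold change -0.51, SE 0.112, adjusted p = 0.0305). Cytl1, 1 of 6 endocardial markers, rose from 11.4, 14.0 and 11.2 CPM to 21.7, 21.45 and 21.0 CPM (log2 fold change 0.82, SE 0.162, adjusted p = 0.0159). Leaving out any 1 of the wild-type libraries (adjusted p = 0.0958, 0.0987 and 0.0605 for replicates 1, 2 and 3) ended the call of Tspan7, as did leaving out the second (0.138) or the third (0.16) of the CAP2 -/- libraries. The call of Cytl1 ended when the first (0.0702) or the third (0.0841) wild-type library was left out, or the second (0.0583) or the third (0.0702) of CAP2 -/-. Of 8 ligands of the VEGF, angiopoietin and apelin families tested in each experiment, none was called in either; at an unadjusted p under 0.05 there were 1 higher and 1 lower in experiment A and 2 lower in experiment B, against the same 10.4% and 22.1% of all genes.

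In hearts aged 13 weeks, Edn1, the vessel-constricting peptide endothelin, rose, 1 of 6 shear and flow genes called, against 1.88% of all genes. It was at 18, 17, 23, 23 and 39 in controls and at 86, 95, 212 and 98 in Cre+ (log2 fold change 2.31, SE 0.347, adjusted p = 0.0109 with limma), and the groups did not overlap. Of the alternatives run, Edn1 missed the threshold with the mitochondrial share as a covariate (0.084). Among markers of other cells in experiment B, the fibroblast gene Postn rose (3.10, SE 0.646, adjusted p = 0.0407), the cardiomyocyte gene Pln fell (-1.53, SE 0.30, adjusted p = 0.0333), and Abcc9, on the smooth muscle and pericyte list, fell (-1.63, SE 0.364, adjusted p = 0.0477), as log2 fold changes. The lists went different ways: 8 of 8 fibroblast markers had an estimate above 0 (median 1.30), while the 10 cardiomyocyte markers had 5 above and 5 below (-1.53 to 0.80), and so had the 10 smooth muscle and pericyte markers (-1.63 to 2.88).

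The calls of Postn, Pln and Abcc9 depend on the libraries and on the settings. Leaving out control replicate 1, 2 or 3 or Cre+ replicate 2 or 3 ended each of them, with adjusted p-values of 0.0653 to 0.129 for Postn, 0.0558 to 0.117 for Pln and 0.0717 to 0.13 for Abcc9. Leaving out control replicate 4 ended that of Postn as well (0.0758), and leaving out Cre+ replicate 4 those of Pln (0.171) and Abcc9 (0.253). With all libraries kept, the mitochondrial share as a covariate ended all 3 calls (0.179 for Postn, 0.116 for Pln and 0.114 for Abcc9). TMM scaling of nuclear genes ended those of Pln (0.052) and Abcc9 (0.0593), removal of the GC trend that of Pln (0.0569), no filter on low values that of Postn (0.106) and no sex term that of Abcc9 (0.0592). In the settings that ended a call, the log2 fold change was 2.65 to 3.27 for Postn, -1.64 to -1.21 for Pln and -1.91 to -1.20 for Abcc9. The atrial gene Nppa rose in experiment A (log2 fold change 5.48, SE 0.177, adjusted p = 3.07e-10).

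The summed level of 8 fibroblast markers was 936 to 1009 CPM in wild type and 1326 to 1413 CPM in CAP2 -/-, and 3381 to 14380 in controls and 11489 to 39203 in Cre+ of experiment B. That of 8 macrophage markers was 396 to 431 and 405 to 554 CPM, and 1375 to 3601 and 2624 to 5096. That of 10 smooth muscle and pericyte markers was 1313 to 1419 and 1069 to 1288 CPM, and 4379 to 10511 and 4075 to 8288. That of 7 lymphatic endothelial markers was 164.9 to 180.7 and 133 to 148 CPM, and 273 to 1104 and 434 to 850, with Ccl21a at 0 in every library of experiment B. That of 7 fat cell markers was 13 to 1476 in controls and 36 to 1048 in Cre+ of experiment B. It was lowest in control replicate 4 and highest in control replicate 5, as Fabp4 was. Their part in the values of the endothelial genes was not tested.

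**Figure D5:**
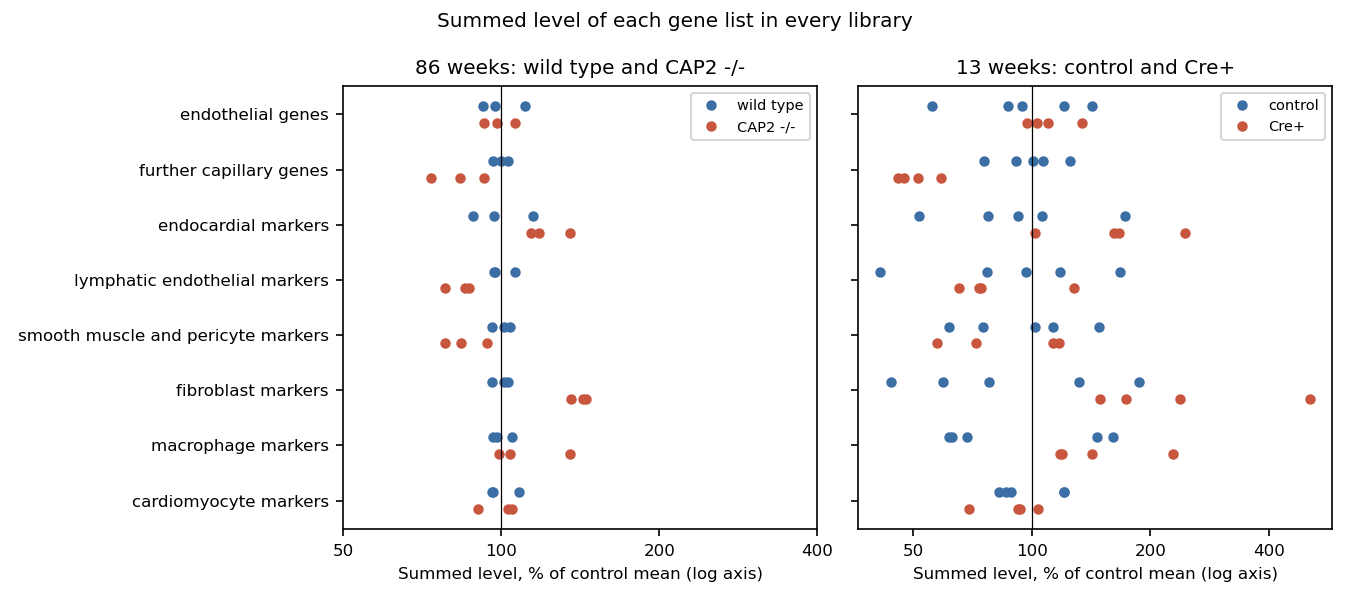
Summed level of each gene list in every library, as a percentage of the mean of the wild-type or control libraries, on a log axis; each point is 1 library. The 34 endothelial genes overlap between the groups in both experiments. The further capillary genes, whose sum is mostly Lpl, are separate in both, and the lymphatic, smooth muscle and pericyte, and fibroblast markers in experiment A.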

How the data were processed

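Heart RNA of 15 libraries was analysed, from 16 labelled samples. Libraries were made with the Ion Total RNA-Seq Kit v2 (experiment A) and the Illumina TruSeq stranded mRNA kit (experiment B), per the labels' protocols. The submitters' processing notes name mm10, STAR 2.6.0c and DESeq with no role; which annotation, counting tool or strand rule was used is not given in the sources used here. The authors deposited each estimated count of experiment A per gene, shares per transcript as a fraction, and a comparison table with a mean signal, log2 fold changes and p-values. For experiment B the authors deposited normalized whole counts, treated as a score because their normalization is not stated.

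Estimated counts were rounded and tested with edgeR 4.0.16 (TMM, filterByExpr, robust quasi-likelihood test) in R 4.3.3. For experiment B, limma 3.58.1 was fitted to log2(value + 1) with a sex term, keeping rows whose mean reached 10. p-values were two-sided and adjusted (Benjamini-Hochberg) over all genes tested, and calls need an adjusted p under 0.05. Values of experiment A are CPM on TMM-adjusted totals. Genes were placed with GENCODE M21. DESeq2 1.42.0, other scalings, filters and pseudocounts, left-out libraries and a replicate block were alternatives. The fits were tested on simulated data. The 34 genes and the other lists were chosen with earlier results of these data known. Every gene called in either experiment was to be given in full, with the 2 of smallest p per role group and experiment; Cdh5 and other genes given with group values were chosen after their values were seen.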

Additional observations from a re-analysis of the deposited data

Results flagged for a closer look

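Across the 70 groups of 4 or 5 libraries of experiment B that were checked for a single library far from the others, 6 were marked, and chance marks about 1 in 20. Among controls, Pecam1 was high at 1627 and Aqp1 at 5816 in replicate 5, Sox17 was low at 23 and Nos3 at 86 in replicate 4, and Clec14a was low at 55 in replicate 1. Among Cre+ libraries, Aqp1 was low at 1887 in replicate 3. All are normalized counts.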

How the results depend on the processing

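In experiment A, 394 genes were called by DESeq2 and 512 with no filter on low counts, against 220, and 1 of the endothelial genes (Tie1) was called lower by DESeq2, with library totals only and with no filter. Leaving out 1 library gave 126 to 275 genes called: 144 when the third wild-type library was dropped, and 137 and 126 when the second or the third CAP2 -/- library was. The median log2 fold change of the endothelial genes ran from -0.15 to -0.01 over all settings, and in experiment B from -0.09 to 0.19. In experiment B, 346 genes were called with no filter on low values and 36 with the mitochondrial share as a covariate, against 228. Quantile normalization called 1 endothelial gene higher (Plvap), and so did removal of the GC trend, an alternative chosen after seeing the data (adjusted p = 0.0361 with limma). Leaving out 1 library gave 39 to 695 genes called and 0 to 2 endothelial genes called higher: the genes called were 48, 45, 82, 403 and 525 without control replicates 1 to 5, and 695, 39, 48 and 57 without Cre+ replicates 1 to 4. Deviations of same-numbered libraries from their group means had correlations of -0.17 to -0.02 in experiment A and -0.11 to 0.24 in experiment B. No library correlated best with its own number. With so few libraries this cannot show that the numbers do not pair them. With the replicate block, the call of Tspan7 in experiment A was lost (0.0926) and that of Abcc9 in experiment B (0.0533), and 394 genes and 2 endothelial genes (Plvap, adjusted p = 0.0332, and Vwf, 0.0251) were called in experiment B; control replicate 5 has no partner there.

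Log2 fold changes of endothelial genes that turned sign in experiment A follow. With library totals only, the sign turned in Vwf -0.0187, Erg -0.0156, Sox18 -0.0307 and Ptprb -0.012. With no filter on low counts, the sign turned in Sox18 -0.00601. With the replicate block, the sign turned in Sox18 -0.00274. Leaving out 1 library gave Aplnr -0.97 to 0.0929, Emcn -0.0141 to 0.27, Erg -0.0436 to 0.0883, Hey1 -0.28 to 0.20, Ptprb -0.0837 to 0.14, Robo4 -0.24 to 0.0402, Sox18 -0.12 to 0.20 and Vwf -0.22 to 0.35. In experiment B: With TMM scaling of nuclear genes, the sign turned in Egfl7 0.0313, Cav1 0.0782, Ptprb 0.0336 and Nos3 0.0757. With quantile normalization, the sign turned in Nos3 0.0268. With no sex term, the sign turned in Egfl7 0.19 and Nos3 0.12. With females only, the sign turned in Sox17 -0.23, Cav1 0.14 and Ptprb 0.34. With the mitochondrial share as a covariate, the sign turned in Egfl7 0.43, Robo4 0.0439, Sox7 0.0184, Nos3 0.39 and Mmrn2 0.0632. With the replicate block, the sign turned in Egfl7 0.15, Aqp1 0.0287, Cav1 0.13, Ptprb 0.10 and Nos3 0.19. With the GC trend removed, the sign turned in Cav1 0.24 and Ptprb 0.13. Leaving out 1 library gave Aqp1 -0.42 to 0.0287, Cav1 -0.11 to 0.15, Egfl7 -0.39 to 0.15, Hey1 -0.0564 to 0.45, Ly6c1 -0.0772 to 0.56, Mmrn2 -0.29 to 0.0119, Nos3 -0.42 to 0.30, Ptprb -0.22 to 0.34 and Sox17 -0.23 to 0.55. The sign did not turn in Cap2 (-2.43 to -2.0), Plvap (1.67 to 2.28) and Vwf (1.17 to 1.83) of experiment B. None of the genes that turned sign was called in the experiment where it turned. Depth is unknown in experiment B, and few libraries limit the precision of both.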
